A study of Mus musculus with 9 samples.

Results

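CD8 T cells of the clones Rop7-I and Rop7-II were compared by RNA sequencing, with the clone Rop7-III as a reference level. The comparison takes 6 of the 9 samples of the series, 3 of Rop7-I and 3 of Rop7-II. Each clone comes from its own line of transnuclear mice, made by transferring the nucleus of a single CD8 T cell, so that the mice carry the rearranged T-cell receptor (TCR) of that cell. The receptors of all the lines recognise the same peptide of the Toxoplasma gondii protein Rop7 on the class I molecule H-2Ld. The mice had been backcrossed to BALB/c for at least 6 generations and, per the legend that describes these samples, were homozygous for the TCR chains. Spleen cells of each line, not stimulated with antigen, were held overnight with recombinant mouse IL-2 at 10 ng per ml and then sorted to high purity as CD3+ CD8+ cells positive for H-2Ld-Rop7 tetramer. Rop7-I, Rop7-II and Rop7-III samples thus share culture and gate, and the BALB/c background as far as that backcrossing reached. The TCR and any other genome difference between the mouse lines cannot be told apart, because each clone is 1 line.

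A naive CD8 T cell receives weak signals through its TCR from self peptides on class I molecules, and signals through the IL-7 receptor, and it keeps a quiescent programme of transcription factors such as Klf2 and homing receptors such as Ccr7. The strength of these signals is known to set the level of surface proteins such as CD5 and of feedback regulators that damp TCR signalling. The question behind the comparison was how cells of the same specificity and different receptors differ before they meet antigen.

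Values are TPM, a gene's share of the transcripts of a sample, corrected for gene length and scaled to a fixed total. TPM keeps no sequencing depth, and the table does not give the reads behind each value, so no counting interval can be given. Fold changes are differences of mean log2(TPM + 1), Rop7-I minus Rop7-II, which understate the change of genes with low values. They were tested with limma over 11981 genes, those with a maximum over 1 TPM in the 6 samples. In what follows, values in 3 samples are given in the order of replicates 1, 2 and 3, and all standard errors (SE) refer to n = 3 samples per clone.

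The labelled cell type was checked first. All 10 CD8 T-cell marker genes were tested and abundant, and their summed level was 8161, 7908 and 8111 TPM in Rop7-I, with 8325, 8765 and 8606 TPM in Rop7-II and 8184, 8004 and 8009 TPM in Rop7-III. Cd8b1 was the most abundant of them, at 2136, 2077 and 2128 TPM in Rop7-I against 2235, 2386 and 2272 TPM in Rop7-II. Cd4 stayed at or under 0.94 TPM in 8 of the 9 samples and was 6.75 TPM in Rop7-II replicate 1. Against a share of 3.77% of all genes higher and 3.90% lower, 1 of the 10 CD8 markers, Cd2, passed higher and 2, Cd8a and Lck, passed lower (median -0.095). Without Rop7-II replicate 1, 1 passed higher and 3 lower, and the 2 lower became 1 without Rop7-III replicate 3 and 0 without each of the 7 others.

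Rop7-II replicate 1 stood apart from the other samples through transcripts of other cells. The summed level of 14 B-cell markers, led by Cd79b, was 954, 94.5 and 97.8 TPM in Rop7-II against 172, 428 and 307 TPM in Rop7-I, and 76.1, 146 and 95.4 TPM in Rop7-III. The 10 MHC class II genes, led by Cd74, summed to 2205, 355 and 447 TPM in Rop7-II against 479.5, 1020.1 and 815 TPM in Rop7-I, and all 10 were highest in Rop7-II replicate 1. The 20 myeloid markers, led by Ms4a6c, summed to 1034, 341 and 527 TPM in Rop7-II against 302, 339.9 and 387 TPM in Rop7-I, and 17 of the 20 were highest in the same sample. Lysozyme 2 (Lyz2) shows the pattern, at 485, 34.99 and 161 TPM in Rop7-II against 27.1, 49.8 and 83.3 TPM in Rop7-I, with the highest value in replicate 1 of Rop7-II and the next in replicate 3. Markers of NK cells, led by Tyrobp, summed to 79.1, 8.94 and 25.6 TPM in Rop7-II against 11.5, 18.1 and 24.4 TPM in Rop7-I, with Klra1 listed at 0 in all samples. Plasma-cell markers, led by Pou2af1, summed to 156, 57.1 and 54.6 TPM in Rop7-II against 72.2, 110.02 and 97.3 TPM in Rop7-I, with Tnfrsf17 listed at 0 in all samples. Results are therefore given with and without Rop7-II replicate 1. Since the samples are bulk RNA, fewer cells of a type and less RNA per cell cannot be told apart.

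**Figure D1:**
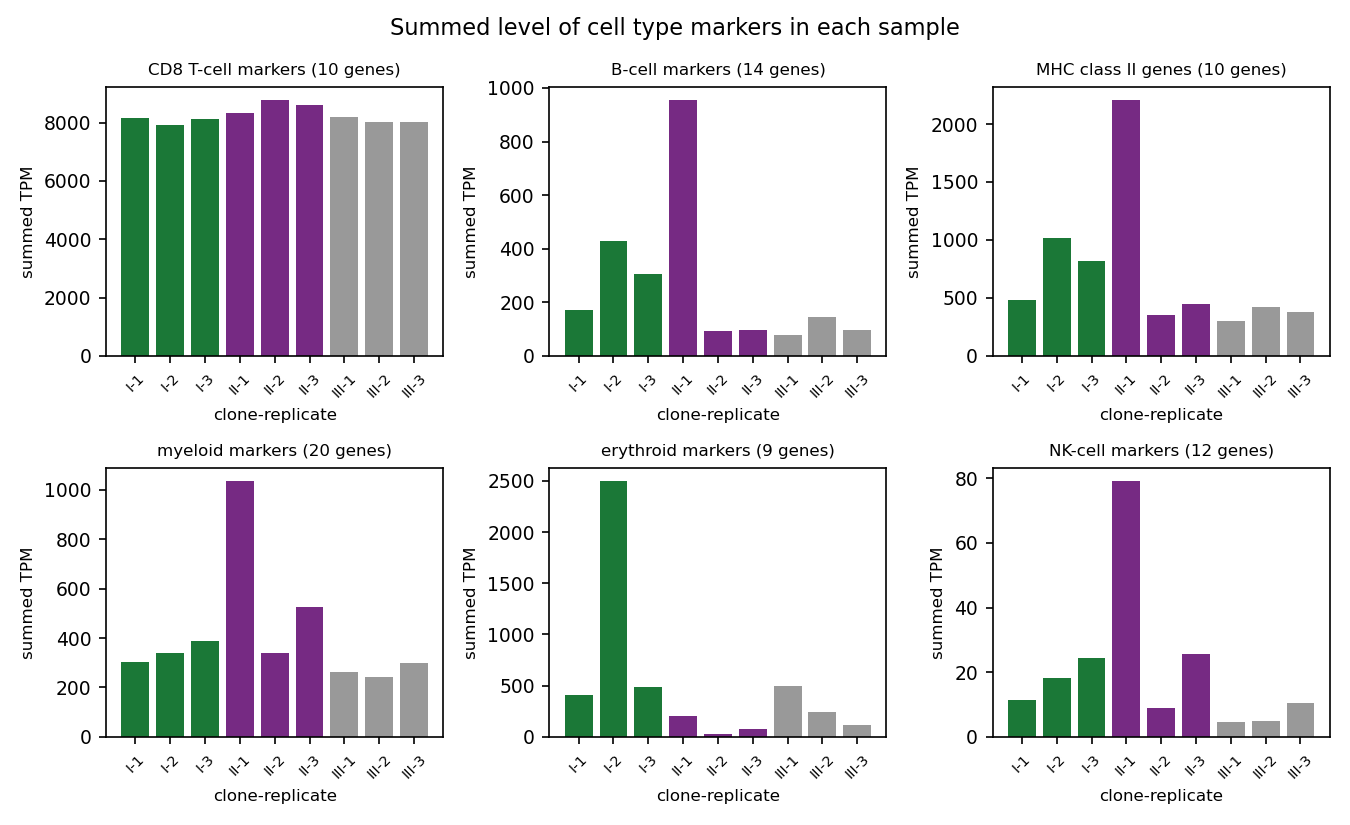
Summed level in TPM (vertical axes, from 0) of the genes of 6 marker lists in each of the 9 samples, named by clone and replicate; green bars are Rop7-I, purple bars Rop7-II and grey bars Rop7-III. CD8 T-cell markers lie between 7908 and 8765 TPM, B-cell, MHC class II, myeloid and NK-cell markers are highest in Rop7-II replicate 1, and erythroid markers are highest in Rop7-I replicate 2.

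With all samples in, 0 of the 69 tested marker genes of other cell types both had an adjusted p under 0.01 in limma and differed by at least 2-fold. Of all genes, 0.968% did so, and 0 of 69 is near that share. Some markers differed by more than 2-fold without passing in limma, such as S100a9 (log2 fold change -2.35, adjusted p = 0.0545). For the B-cell markers, limma passed 0 of 14 in either direction (0 at an unadjusted p under 0.05), with a median log2 fold change of 0.41. Without Rop7-II replicate 1, 4 of the 14 (Pax5, Bank1, Fcrla and Ms4a1) were higher in Rop7-I and the median was 1.49. Of all genes, 3.95% passed higher and 3.57% lower in that fit, and 3.77% and 3.90% with all samples. The MHC class II genes went from 0 of 10 (1 at an unadjusted p under 0.05, lower) and a median of 0.42 to 1 higher, H2-DMb2, and a median of 1.45. Of the 17 myeloid markers tested, limma passed 0 (3 at an unadjusted p under 0.05, all lower), and without the sample it passed 0 of 15, with medians of -0.53 and -0.12. It passed 2 myeloid markers lower without Rop7-III replicate 2 and 1 without Rop7-III replicate 3, and S100a9 and Ms4a6c also passed with only the 6 samples of the comparison. Of the 6 plasma-cell markers tested, limma passed 0 (0 at an unadjusted p under 0.05, median 0.14), and 2 passed higher without the sample (median 0.67). Of the 4 NK-cell markers tested, limma passed 0 (median -0.36, with 0 higher and 0 lower at an unadjusted p under 0.05). Without Rop7-II replicate 1 it passed 0 of 2, with a median of 0.0125. The B-cell factor gene Pax5 was at 7, 13.4 and 9.81 TPM in Rop7-I against 26.01, 1.82 and 2.69 TPM in Rop7-II, so each Rop7-I sample lay between replicate 1 and the other replicates of Rop7-II. The part of these cells in the results below was not tested.

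At an adjusted p under 0.01, 919 of the 11981 genes (7.67%) differed between the clones, 452 of them (3.77%) higher and 467 (3.90%) lower in Rop7-I. Genes that also differed by at least 2-fold are named called genes below, and there were 116 of them (0.968%), with 54 (0.451%) higher in Rop7-I and 62 (0.517%) lower. The median log2 fold change over all tested genes was -0.0090. Without Rop7-II replicate 1, 884 of 11755 genes (7.52%) passed, with 464 (3.95%) higher and 420 (3.57%) lower in Rop7-I, and 158 (1.34%) were called, of which 97 (0.825%) were higher and 61 (0.519%) lower. The number of higher genes thus grew from 54 to 97 and the number of lower genes hardly moved. The wider count of 919 fell to 491, 417 and 521 when Rop7-I replicate 1, 2 or 3 was left out, and to between 642 and 884 with any other sample left out.

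**Figure D2:**
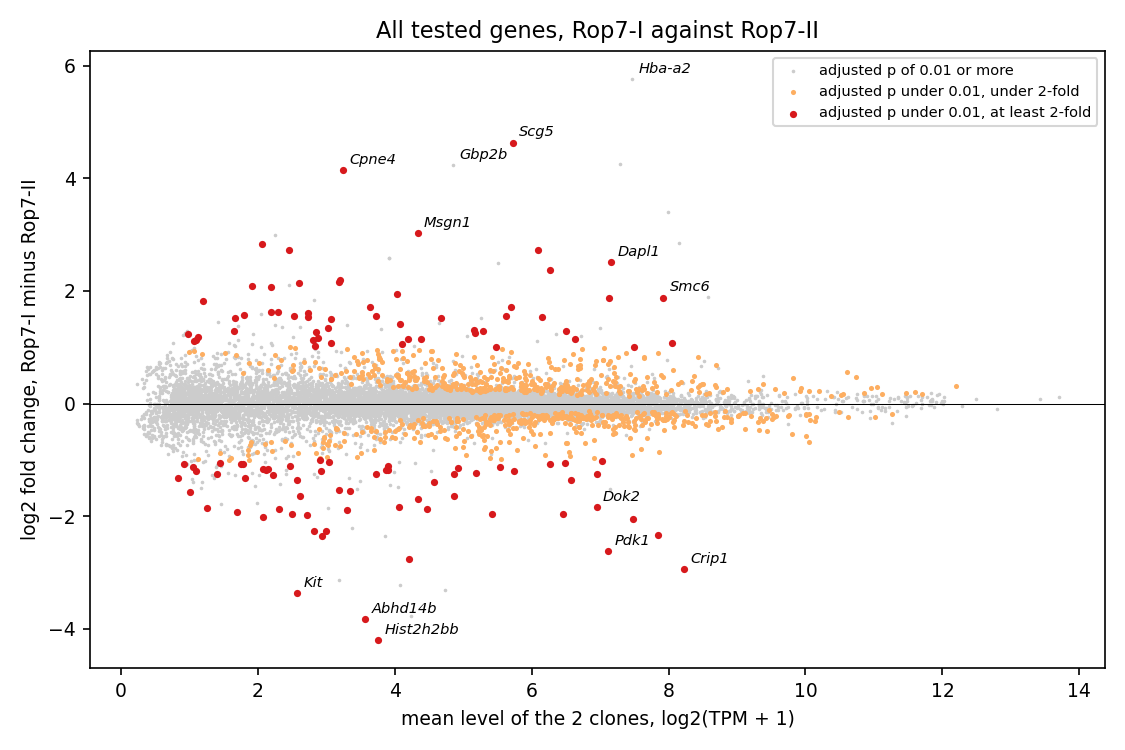
Each point is 1 of the 11981 tested genes. The horizontal axis is log2(TPM + 1) of the average of the mean TPM of Rop7-I and Rop7-II. The vertical axis is the log2 fold change, Rop7-I minus Rop7-II. Red points are the 116 called genes, orange points passed the test with a smaller difference, and Hba-a2 and Gbp2b are labelled as large differences that did not pass.

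The genes with the largest differences came from several unrelated functions. Among the genes higher in Rop7-I were the secretory chaperone gene Scg5, the mesoderm transcription factor gene Msgn1, the copine gene Cpne4, the fetal serum protein gene Afp and the CD8 transcription factor gene Eomes. Among those higher in Rop7-II were the histone gene Hist2h2bb, the receptor tyrosine kinase gene Kit, the LIM-domain gene Crip1 and the metabolic kinase gene Pdk1. In 23 of the 116 genes every sample of the lower clone was under 1 TPM, 10 of them higher and 13 lower in Rop7-I. Rop7-III lay closer to Rop7-I in 76 of the 116 genes and closer to Rop7-II in 40, by the mean log2(TPM + 1). This was counted with all samples in, and the share among all genes is not given here.

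Scg5 encodes secretogranin V, a chaperone of a proprotein convertase in secretory cells. It was at 100.3, 105 and 96.5 TPM in Rop7-I and at 3.27, 2.46 and 3.61 TPM in Rop7-II, and at 101, 93.6 and 97.3 TPM in Rop7-III. With 1 TPM added, the log2 fold change was 4.64 (SE 0.093, adjusted p = 7.95e-09), the largest rise among the 116 genes. It was 4.67 without Rop7-II replicate 1. Cpne4, a member of the calcium-dependent lipid-binding copines, was at 17.1, 16.2 and 17.7 TPM in Rop7-I, while Rop7-II replicate 1 had 0.05 TPM and replicates 2 and 3 were listed at 0. Rop7-III was in between, at 5.34, 5.14 and 9.7 TPM. Its log2 fold change of 4.14 (SE 0.19, adjusted p = 1.93e-06) rests on the 1 TPM added and reached 7.22 with 0.1 TPM added. That is above the highest value of Scg5 under any alternative, 4.99. Afp, the gene of alpha-fetoprotein, was at 6.8, 5.23 and 7.03 TPM in Rop7-I only, against 0.08, 0 and 0 TPM in Rop7-II and 0.05, 0.14 and 0.28 TPM in Rop7-III, a log2 fold change of 2.83 (SE 0.16, adjusted p = 9.15e-06). Rop7-I was thus the clone that stood out for Afp, and Rop7-II the one that stood out for Scg5.

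Msgn1 encodes mesogenin 1, a basic helix-loop-helix factor of the early mesoderm. Its level was 32.05, 34.7 and 37.9 TPM in Rop7-I, with 3.51, 5.01 and 2.16 TPM in Rop7-II and 47.8, 44.1 and 53.3 TPM in Rop7-III, with a log2 fold change of 3.02 (SE 0.19, adjusted p = 1.71e-05). Smc6, a subunit of the SMC5/6 complex of DNA repair, lies beside it on chromosome 12 and was far more abundant, at 374, 378 and 389 TPM in Rop7-I, with 97.4, 115 and 96.05 TPM in Rop7-II and 477, 448 and 478 TPM in Rop7-III. It rose by 1.88 on the log2 scale (SE 0.062, adjusted p = 2.42e-07). For both genes all Rop7-I and Rop7-III samples were above all Rop7-II samples.

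Aldh2, the mitochondrial aldehyde dehydrogenase, was at 103, 131 and 112 TPM in Rop7-I, at 38.3, 10.3 and 10.9 TPM in Rop7-II and at 17.4, 15.6 and 18.9 TPM in Rop7-III. Rop7-II replicate 1 was the highest of the 6 samples outside Rop7-I. The log2 fold change was 2.73 (SE 0.40, adjusted p = 0.00196) with that sample and 3.31 (adjusted p = 2.57e-07) without it, and it no longer passed without Rop7-I replicate 2 (adjusted p = 0.0113). Nor did it pass with only the 6 samples of the comparison (adjusted p = 0.0122). Over the 9 left-out samples its adjusted p ranged from 2.57e-07 to 0.0113. Smo, the transducer of Hedgehog signals at the membrane, was at 4.7, 5.65 and 4.98 TPM in Rop7-I, with 0.52, 0.24 and 0.59 TPM in Rop7-II and 1.43, 1.3 and 1.48 TPM in Rop7-III, a rise of 2.08 (SE 0.14, adjusted p = 2.63e-05). For Aldh2 and Smo alike all 3 Rop7-I samples lay above all 6 other samples.

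Weaker support was found for a pair of genes among the 12 largest rises. Tmem2, a cell-surface hyaluronidase, was at 14, 14.3 and 12.4 TPM in Rop7-I against 3.88, 0.51 and 3.69 TPM in Rop7-II, with a log2 fold change of 2.16 (SE 0.37, adjusted p = 0.00456). It no longer passed without Rop7-I replicate 1 (0.0186), 2 (0.0215) or 3 (0.016) and without Rop7-III replicate 2 (0.0102, all adjusted p). Nor did it pass with only the 6 samples (0.022), with no trend of the spread (0.0132), with 0.1 TPM added (0.0133) or with no filter on low values (0.0106). The transcript A730098P11Rik, of no assigned function and inside the gene Lpp, was at 8.68, 8.77 and 8.06 TPM in Rop7-I against 0.46, 0.28 and 4.3 TPM in Rop7-II (log2 fold change 2.14, adjusted p = 0.00992). It passed with 1 of the 9 samples left out, Rop7-II replicate 3, which was the highest of its clone, and its adjusted p reached 0.0377 with the others left out and 0.0368 with only the 6 samples.

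**Figure D3:**
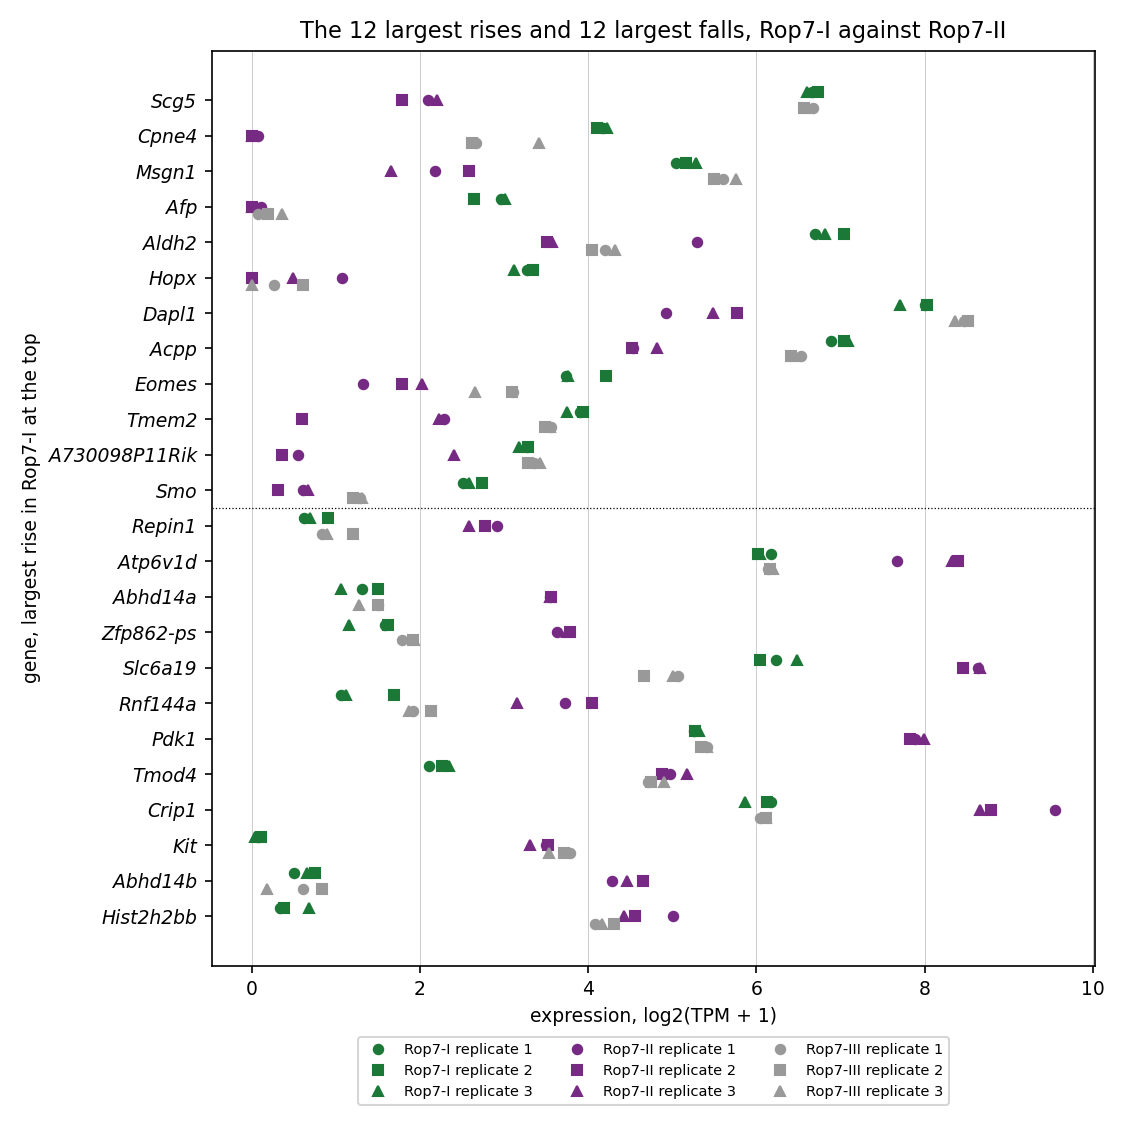
Level on the log2(TPM + 1) scale (horizontal axis) of the 12 genes with the largest rises (above the dotted line) and the 12 with the largest falls (below it) in Rop7-I against Rop7-II. Each point is 1 sample, with colour for the clone (green Rop7-I, purple Rop7-II, grey Rop7-III) and shape for the replicate; the Rop7-III points sit beside Rop7-I for genes such as Scg5, Crip1 and Pdk1 and beside Rop7-II for Kit, Tmod4 and Hist2h2bb.

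Among the falls, Hist2h2bb, an H2B histone gene, was at 0.26, 0.3 and 0.6 TPM in Rop7-I, with 31.2, 22.5 and 20.5 TPM in Rop7-II and 15.9, 18.9 and 16.9 TPM in Rop7-III. With 1 TPM added it fell by 4.20 on the log2 scale (SE 0.16, adjusted p = 4.28e-07), the largest fall among the 116 genes. The neighbouring histone gene Hist2h4, at 5.26, 7.24 and 6.37 TPM in Rop7-I against 25.6, 20.9 and 29.2 TPM in Rop7-II, fell by 1.84. Histone genes have near-identical copies, so how reads were shared among them is uncertain. Kit, the receptor of stem cell factor, was close to absent in Rop7-I at 0.05, 0.08 and 0.03 TPM and present in Rop7-II at 10.3, 10.5 and 8.88 TPM and in Rop7-III at 12.7, 12.2 and 10.5 TPM. Its log2 fold change was -3.37 (SE 0.11, adjusted p = 1.93e-07). Under the alternatives it reached -6.04, below the lowest value of Hist2h2bb, -5.71, so the first rank of Hist2h2bb rests on the 1 TPM added. Tmod4, a tropomodulin that caps actin filaments in muscle, was lowest in Rop7-I as well, at 3.31, 3.8 and 4.09 TPM in Rop7-I, with 30.5, 28.5 and 35 TPM in Rop7-II and 25.2, 25.9 and 28.9 TPM in Rop7-III, with a log2 fold change of -2.77 (adjusted p = 2.75e-07). It overlaps Vps72, and since the libraries do not mark strand, reads from overlapping genes cannot be told apart. Among genes named below or above, Dok2 overlaps Xpo7, Sla overlaps Tg, Itgae overlaps Haspin, Smc6 overlaps Gen1 and Slc6a19 overlaps Slc6a19os.

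Crip1, a small LIM-domain protein, was abundant in Rop7-II at 748, 441 and 403 TPM, highest in replicate 1, and lower in Rop7-I at 71.1, 68.7 and 57.2 TPM and in Rop7-III at 65.1, 68.2 and 68.3 TPM. Its log2 fold change was -2.95 (SE 0.19, adjusted p = 2.11e-05) and -2.67 without Rop7-II replicate 1. Pdk1, a kinase that inhibits pyruvate dehydrogenase, had the smallest adjusted p of all tested genes. Its level was 37.2, 37.7 and 39.03 TPM in Rop7-I, with 236, 226 and 255 TPM in Rop7-II and 41.7, 39.6 and 41.7 TPM in Rop7-III, and it fell by 2.62 (SE 0.048, adjusted p = 6.14e-09). For Crip1 and Pdk1 alike the Rop7-II samples lay above all 6 other samples.

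Slc6a19 encodes a sodium-dependent transporter of neutral amino acids, best known in gut and kidney. It was at 74.5, 64.7 and 88.6 TPM in Rop7-I, with 396, 349 and 403 TPM in Rop7-II and 32.6, 24.3 and 31.2 TPM in Rop7-III, and it fell by 2.33 on the log2 scale (SE 0.13, adjusted p = 7.39e-06). Atp6v1d, a subunit of the proton pump of lysosomes, was at 71.4, 63.8 and 64.9 TPM in Rop7-I, with 203, 337 and 321 TPM in Rop7-II and 69.4, 70.9 and 72.5 TPM in Rop7-III, with a log2 fold change of -2.05 (adjusted p = 5.11e-05). Rnf144a, an E3 ubiquitin ligase, was at 1.09, 2.24 and 1.17 TPM in Rop7-I, with 12.2, 15.5 and 7.93 TPM in Rop7-II and 2.76, 3.39 and 2.65 TPM in Rop7-III (log2 fold change -2.35, adjusted p = 2.79e-04).

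Many of the called genes lie close to each other on the chromosomes. Another called gene was found within 1 Mb for 52 of the 116 genes (44.8%), against 1449 of 11800 tested genes that were not called (12.3%). These 52 genes form 21 clusters, of which 9 hold genes of both directions. The largest, on chr9:104288240-106464012, holds 6 called genes among 21 tested. Acpp, Cpne4 and the collagen gene Col6a4 were higher in Rop7-I there, and Abhd14a, Abhd14b and Pcbp4 were lower. Acpp, a phosphatase that makes adenosine from AMP, was at 117, 131 and 135 TPM in Rop7-I, with 22.2, 21.99 and 27.1 TPM in Rop7-II and 91.4, 84.3 and 86.9 TPM in Rop7-III, a rise of 2.38 (SE 0.082, adjusted p = 2.75e-07). Abhd14b, a hydrolase gene, was at 0.42, 0.68 and 0.57 TPM in Rop7-I, with 18.5, 24.2 and 21.1 TPM in Rop7-II and 0.52, 0.78 and 0.13 TPM in Rop7-III, with a log2 fold change of -3.83 (adjusted p = 1.94e-06). Abhd14a and Abhd14b overlap, so their reads cannot be fully told apart.

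Other clusters join genes already described. Pacs2, Crip2 and Crip1, within chr12:113014454-113153879, were all lower in Rop7-I, and 5 genes were tested there. Crip2, at 0.52, 0.89 and 0.29 TPM in Rop7-I against 3.5, 2.56 and 2.15 TPM in Rop7-II (log2 fold change -1.26, adjusted p = 0.0035), no longer passed when Rop7-I lost replicate 1 (0.0153) or 3 (0.0148) or without Rop7-II replicate 2 (0.0104), nor with only the 6 samples (0.0147) or the replicate number as a block (0.011, all adjusted p). Pacs2, a sorting protein, was at 86.3, 80.4 and 88.9 TPM in Rop7-I, with 169, 174 and 181 TPM in Rop7-II and 138, 136 and 136 TPM in Rop7-III (log2 fold change -1.03, adjusted p = 7.67e-07). Itga6 and Pdk1, the 2 tested genes of chr2:71786886-71903858, differed in opposite directions. On chr6:48504339-49389905, 4 of 21 tested genes were called. Of these, Repin1, a zinc finger gene, was at 0.54, 0.87 and 0.62 TPM in Rop7-I against 6.57, 5.82 and 4.97 TPM in Rop7-II (log2 fold change -2.02, adjusted p = 6.17e-05), and Zfp862-ps, a pseudogene, was at 1.99, 2.08 and 1.22 TPM and 11.3, 12.7 and 12.5 TPM (log2 fold change -2.27, adjusted p = 1.07e-05).

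Leaving out Rop7-II replicate 1 changed which genes were called. Called with and without it were 103 genes, all in the same direction, while 13 were called only with it and 55 only without it. Of the 55, 48 were higher in Rop7-I. Of these 48, 9 belong to the marker lists of other cell types, as do 69 of the 11981 genes tested with all samples. The 9 include Hbb-b2 and Hbb-bt, whose values are identical. Rop7-II replicate 1 was the highest of all 9 samples in 25 of the 48, and the share among all genes is not given here. That sample was above both other Rop7-II samples in 47, which the way these genes were picked makes likely by itself. Some of the 55, such as Gbp3 and Ubash3b, had passed the test with all samples at a smaller difference. Gbp3, Ubash3b, Gbp2b, Stap1 and Plac8 are named here because of values already seen. The guanylate-binding protein gene Gbp2b was at 54.8, 50.99 and 44.2 TPM in Rop7-I against 28.3, 29.3 and 25.5 TPM in Rop7-III, whereas Rop7-II had 17.5 TPM in replicate 1, 0 in replicate 2 and 0.05 TPM in replicate 3. Its log2 fold change was 4.24 (adjusted p = 0.013) with the sample and 5.63 (adjusted p = 1.21e-08) without it. Stap1, a signalling adaptor, was at 30.9, 37.8 and 35.1 TPM in Rop7-I against 23.4, 8.71 and 8.47 TPM in Rop7-II, with values of 1.44 (adjusted p = 0.0117) and 1.89 (adjusted p = 2.71e-06). Gbp2b also passed with sample weights, and Stap1 with sample weights, quantile normalization or a filter of at least 1 TPM in each of the 6 samples, all with Rop7-II replicate 1 in. Plac8, a cysteine-rich protein, was at 52.8, 77.98 and 80.6 TPM in Rop7-I against 161, 14.1 and 13.03 TPM in Rop7-II, with values of 1.11 (adjusted p = 0.362) and 2.27 (adjusted p = 4.06e-05).

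**Figure D4:**
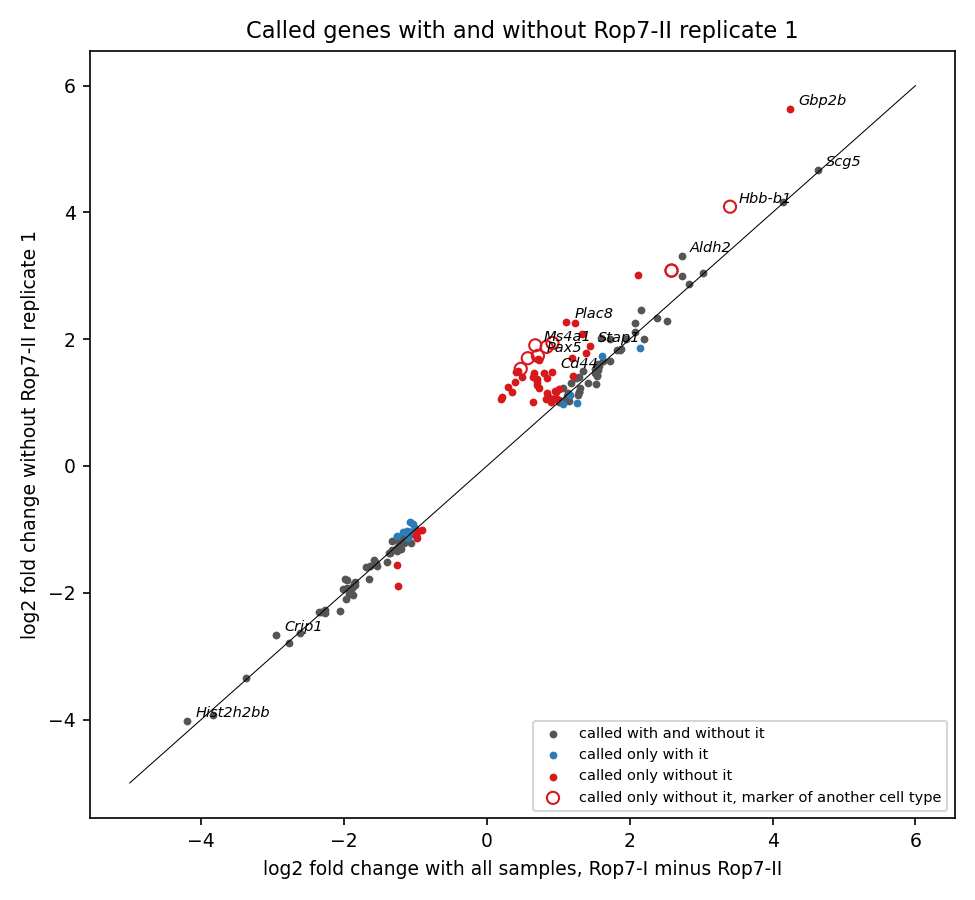
Log2 fold change, Rop7-I minus Rop7-II, with all samples (horizontal axis) and without Rop7-II replicate 1 (vertical axis). Each point is 1 gene; grey genes were called in both, blue genes only with the sample, red genes only without it, and open red points are markers of another cell type.

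The adhesion receptor gene Cd44, a marker of antigen experience, followed this pattern. It was at 6.95, 8.78 and 8.42 TPM in Rop7-I, with 9.51, 1.85 and 2.68 TPM in Rop7-II and 9.52, 11.1 and 9.73 TPM in Rop7-III. Its log2 fold change was 0.91 (SE 0.39, adjusted p = 0.141) with all samples and 1.48 (adjusted p = 2.29e-04) without Rop7-II replicate 1. CD44 is also made by B and myeloid cells, and their part in the value of that sample was not tested.

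More interferon-stimulated genes passed higher than lower in Rop7-I. Of 60 tested, 15 passed higher, 1 lower and 44 not, beside 3.77% and 3.90% of all genes, and 51 had a positive log2 fold change, with a median of 0.24 against -0.0090 for all genes. Without Rop7-II replicate 1, 14 passed higher and 0 lower, with a median of 0.18. The count of 15 became 7 when either of replicates 1 and 2 of Rop7-I was left out and lay between 11 and 19 with any other sample left out, and the 1 lower stayed only without Rop7-II replicate 2. The immunity-related GTPase gene Irgm2 was at 55.96, 57.7 and 49.2 TPM in Rop7-I, with 18.1, 19.3 and 28.8 TPM in Rop7-II and 18.3, 17.7 and 21.3 TPM in Rop7-III, a rise of 1.29 (SE 0.15, adjusted p = 6.39e-04). Gbp7, a guanylate-binding protein, was at 68.7, 67.4 and 62.1 TPM in Rop7-I, with 37.8, 41.5 and 45.6 TPM in Rop7-II and 48.2, 45.96 and 48.7 TPM in Rop7-III (log2 fold change 0.66, adjusted p = 2.88e-04). Ifit2, an RNA-binding antiviral protein, was at 54.5, 54.8 and 50.8 TPM in Rop7-I against 30.2, 31.5 and 35.6 TPM in Rop7-II (log2 fold change 0.70, adjusted p = 6.05e-04). For these 3 genes every Rop7-I sample lay above every Rop7-II and Rop7-III sample. Guanylate-binding protein genes are near-identical in part, so the sharing of reads among them is uncertain.

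Promoters of such genes often carry the interferon-stimulated response element, here searched as 2 copies of TTTC with any 2 bases between them, on either strand, in windows of 300 bases taken from RefSeq on GRCm38.p6. The motif was found in 1131 of 32851 windows (3.44%) and in the promoters of 340 of 8975 tested genes with a window (3.79%). For interferon-stimulated genes it was found in 25 of 39 with a window (64.1%). The others of the 60 tested had no window and were not searched. Among the interferon-stimulated genes higher in Rop7-I the motif was found in 7 of 11 with a window (63.6%). Shown are 3 windows with the motif in capitals, as a description of sequence only, while the windows of Ifit2 hold none.

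Gbp7 (chr3:142530086-142530385, + strand): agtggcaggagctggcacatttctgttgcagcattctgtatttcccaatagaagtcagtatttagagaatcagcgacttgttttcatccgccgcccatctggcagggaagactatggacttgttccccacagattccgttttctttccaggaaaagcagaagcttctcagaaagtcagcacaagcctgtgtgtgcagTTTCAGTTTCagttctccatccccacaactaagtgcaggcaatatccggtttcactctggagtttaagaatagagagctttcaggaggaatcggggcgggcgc

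Irgm2 (chr11:58214727-58215026, + strand): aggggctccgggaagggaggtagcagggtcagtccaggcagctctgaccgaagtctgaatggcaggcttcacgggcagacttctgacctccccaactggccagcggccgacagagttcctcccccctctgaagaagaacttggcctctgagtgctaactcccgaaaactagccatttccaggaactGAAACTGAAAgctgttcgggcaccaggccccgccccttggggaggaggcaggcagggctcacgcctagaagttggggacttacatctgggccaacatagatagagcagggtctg

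Gbp2b (chr3:142594597-142594896, + strand): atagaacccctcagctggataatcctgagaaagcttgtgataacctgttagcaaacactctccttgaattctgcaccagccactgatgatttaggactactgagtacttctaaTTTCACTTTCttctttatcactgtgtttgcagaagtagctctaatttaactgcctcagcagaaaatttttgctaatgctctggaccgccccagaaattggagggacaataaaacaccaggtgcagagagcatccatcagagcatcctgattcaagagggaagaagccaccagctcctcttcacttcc

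Some receptors and transducers of cytokine signals also differed. Of 31 cytokine receptors, 4 passed higher and 0 lower by limma (3 lower at an unadjusted p under 0.05) and 27 did not pass, beside 3.77% and 3.90% of all genes, with a median of 0.056, and without Rop7-II replicate 1 the counts were 4 and 1 of 30 and the median 0.13. Il7r, the receptor chain for the survival cytokine IL-7, was at 473, 525 and 533 TPM in Rop7-I, with 300.2, 318 and 333 TPM in Rop7-II and 747, 730.03 and 771 TPM in Rop7-III. It rose by 0.69 (SE 0.052, adjusted p = 4.75e-05). Ifngr1, the ligand-binding chain of the interferon gamma receptor, was at 344, 398 and 333 TPM in Rop7-I, with 158, 157 and 194 TPM in Rop7-II and 313, 337 and 366 TPM in Rop7-III (log2 fold change 1.08, adjusted p = 1.41e-04). The IL-4 receptor gene Il4ra was at 159, 194 and 177 TPM in Rop7-I against 74.5, 92.8 and 99.2 TPM in Rop7-II (log2 fold change 0.99, adjusted p = 3.22e-04). Il2ra, the high-affinity IL-2 receptor chain, was low at 2.56, 2.86 and 2.42 TPM in Rop7-I against 4.79, 1.55 and 1.68 TPM in Rop7-II and did not pass with all samples (log2 fold change 0.083, adjusted p = 0.879) or without Rop7-II replicate 1 (0.47, adjusted p = 0.109).

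Of 26 JAK, STAT and SOCS genes, 6 passed higher and 0 lower by limma (2 lower at an unadjusted p under 0.05), beside 3.77% and 3.90% of all genes, and without Rop7-II replicate 1 the counts were 5 and 0 of 25. Their median was 0.00 to 2 decimals with all samples and 0.018 without that sample. The count of 6 became 2 without Rop7-I replicate 2 and 3 without Rop7-II replicate 2, and the 0 lower became 1 without Rop7-I replicate 2. Stat4, the transducer of IL-12 signals, was at 168, 188 and 172 TPM in Rop7-I, with 90.2, 114 and 109.7 TPM in Rop7-II and 203, 196 and 201 TPM in Rop7-III, a rise of 0.75 (SE 0.08, adjusted p = 3.71e-04).

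The TCR machinery gave small differences in abundant genes. Of 30 genes of the TCR complex and its proximal kinases, 0 passed higher by limma (6 at an unadjusted p under 0.05) and 3 lower, namely Lat, Cd8a and Lck, beside 3.77% and 3.90% of all genes. Their median of -0.0092 turned positive, at 0.023, after quantile normalization. Without Rop7-II replicate 1 the counts were 1 and 5 and the median -0.0075. Without Rop7-II replicate 3 the counts were 2 and 0. The 3 lower became 1 without Rop7-I replicate 1, 1 without replicate 3 of that clone, 2 without Rop7-III replicate 3 and 0 without each of the 5 remaining samples. Cd8a was at 719, 665 and 722 TPM in Rop7-I, with 785, 839 and 835 TPM in Rop7-II and 627, 606 and 637 TPM in Rop7-III (log2 fold change -0.22, adjusted p = 0.00632), and of the 9 samples left out in turn it passed only without Rop7-II replicate 1. With only the 6 samples its adjusted p was 0.0225. Cd3e did not pass with that replicate (log2 fold change -0.079, adjusted p = 0.316) or without it (-0.14, adjusted p = 0.0157). Downstream, 3 of 52 signalling genes passed higher and 1 lower, near the 3.77% and 3.90% of all genes, with a median of -0.0059, and without Rop7-II replicate 1 the counts were 4 and 0. The 1 lower became 2 without Rop7-II replicate 3 and 0 without each of the 8 others. Malt1, a protease of the NF-kappaB pathway, was at 65.1, 62.8 and 58.1 TPM in Rop7-I against 45.99, 45.95 and 42.6 TPM in Rop7-II (log2 fold change 0.46, adjusted p = 8.86e-04).

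Some feedback regulators of TCR signalling differed, in both directions. Of 46 tested, 9 passed higher, 4 lower and 33 not, beside 3.77% and 3.90% of all genes, with a median of -0.0036, and without Rop7-II replicate 1 the counts were 8 and 4 and the median 0.043. The 9 became 5 and 6 when replicates 2 and 3 of Rop7-I were left out in turn. Dok2, an adaptor that damps receptor signals, was at 54.1, 49.8 and 54.8 TPM in Rop7-I, with 181, 206 and 189.7 TPM in Rop7-II and 62.4, 65.3 and 64.3 TPM in Rop7-III. It fell by 1.84 (SE 0.053, adjusted p = 1.19e-07). The phosphatase gene Dusp2 was at 115, 128 and 119 TPM in Rop7-I against 174, 177 and 171 TPM in Rop7-II (log2 fold change -0.53, adjusted p = 1.52e-04). Sla, an adaptor that lowers TCR levels, was at 55.3, 52.99 and 54.4 TPM in Rop7-I, with 40.03, 37.8 and 40.4 TPM in Rop7-II and 70.2, 67.5 and 62.01 TPM in Rop7-III (log2 fold change 0.45, adjusted p = 4.90e-04).

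Cd5, whose level follows the strength of self recognition, was at 72.9, 71.5 and 58.5 TPM in Rop7-I, with 33.4, 52.9 and 37.9 TPM in Rop7-II and 176, 181 and 175 TPM in Rop7-III. The log2 fold change was 0.71 (SE 0.15, adjusted p = 0.00988). It still passed without Rop7-II replicate 2 and did not with each of the 8 other samples left out, with an adjusted p of 0.0387, 0.0417 and 0.0135 for Rop7-I replicates 1 to 3, 0.017 and 0.0323 for Rop7-II replicates 1 and 3, and 0.0189, 0.0189 and 0.0181 for Rop7-III replicates 1 to 3. With only the 6 samples it was 0.0368.

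Immediate early genes, which respond within minutes to a signal, passed in 4 of 22 higher and in 1 lower, beside 3.77% and 3.90% of all genes, with a median of 0.15. With Rop7-II replicate 1 left out the counts were 2 and 1 of 21 and the median 0.26. The 4 became 1 without Rop7-I replicate 2, 3 without Rop7-III replicate 3 and 2 without each of the 7 others, and the 1 lower became 2 without Rop7-II replicate 2. Zfp36, an RNA-decay factor, was at 307, 275 and 259.8 TPM in Rop7-I against 207, 200.3 and 197 TPM in Rop7-II (log2 fold change 0.47, adjusted p = 0.0014). Jund, an AP-1 factor, was at 124, 126 and 106 TPM in Rop7-I against 162, 181 and 174 TPM in Rop7-II (log2 fold change -0.53, adjusted p = 0.001). Nr4a1, a reporter of TCR signals, was at 2.74, 4.69 and 4.79 TPM in Rop7-I, with 9.7, 1.59 and 2.19 TPM in Rop7-II and 2.69, 4.7 and 2.85 TPM in Rop7-III. It did not pass with all samples (log2 fold change 0.16, adjusted p = 0.849) or without Rop7-II replicate 1 (0.79, adjusted p = 0.057). Cd69, an early activation marker, was at 8.86, 10.1 and 7.53 TPM and 6.96, 5.56 and 5.9 TPM (log2 fold change 0.46, adjusted p = 0.0443). The cytokine genes Il2 and Ifng were too low to be tested, with at most 0.16 TPM in any sample.

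Some costimulatory and coinhibitory molecules were higher in Rop7-I. Of 34 tested in this mixed list, which also holds ligands, 6 passed higher and 0 lower by limma (1 lower at an unadjusted p under 0.05), 28 did not pass and 20 had a positive log2 fold change, beside 3.77% and 3.90% of all genes, with a median of 0.12. They were 7 and 1 of 32 once Rop7-II replicate 1 was left out, with a median of 0.25. The count of 6 became 4 when either of replicates 1 and 2 of Rop7-I was left out. Cd28, the main costimulatory receptor, was at 129, 131 and 139 TPM in Rop7-I, with 93.6, 97.6 and 102 TPM in Rop7-II and 156, 151 and 160.2 TPM in Rop7-III, a rise of 0.44 (SE 0.044, adjusted p = 2.56e-04). Tnfsf8, the CD30 ligand, was at 28.4, 24.1 and 22.01 TPM in Rop7-I, with 6.21, 4.03 and 7.16 TPM in Rop7-II and 12.2, 11.5 and 9.51 TPM in Rop7-III, a rise of 1.95 (SE 0.17, adjusted p = 1.39e-04). The adhesion receptor gene Cd2 was at 320.4, 324 and 343 TPM in Rop7-I against 253, 258 and 242 TPM in Rop7-II (log2 fold change 0.39, adjusted p = 1.29e-04).

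Transcription factors that set CD8 fate included both quiescence and memory regulators. Of 43 tested, 7 passed higher and 2 lower, beside 3.77% and 3.90% of all genes, with a median of 0.045, and the counts were again 7 and 2 of 42 without Rop7-II replicate 1. The 2 lower became 1 when replicate 1 or 2 of Rop7-I or replicate 2 of Rop7-II was left out. Eomes, a T-box factor of memory cells, was at 12.3, 17.5 and 12.6 TPM in Rop7-I, with 1.49, 2.45 and 3.07 TPM in Rop7-II and 7.62, 7.55 and 5.3 TPM in Rop7-III. It rose by 2.19 (SE 0.21, adjusted p = 1.85e-04). Hopx, an atypical homeodomain protein whose gene overlaps Hopxos, was at 8.69, 9.15 and 7.68 TPM in Rop7-I, with 1.11, 0 and 0.4 TPM in Rop7-II and 0.2, 0.53 and 0 TPM in Rop7-III (log2 fold change 2.72, adjusted p = 2.27e-04). Batf, an AP-1 factor of effector cells, was at 38.2, 33.9 and 34.5 TPM in Rop7-I against 21.8, 20.97 and 20.8 TPM in Rop7-II (log2 fold change 0.72, adjusted p = 3.93e-05). Klf2, which keeps cells quiescent and recirculating, was at 806, 869.97 and 775 TPM in Rop7-I, with 1207, 1343 and 1381 TPM in Rop7-II and 1072, 1194 and 1234 TPM in Rop7-III, and fell by 0.68 (SE 0.068, adjusted p = 2.58e-04).

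Of 28 genes of the naive state, 4 passed higher, 6 lower and 18 not with and without Rop7-II replicate 1, beside 3.77% and 3.90% of all genes with it, with medians of 0.044 and 0.0047. The 6 lower became 3 without Rop7-I replicate 1, 4 without replicate 2 and 3 without replicate 3. Dapl1, a transcript enriched in naive CD8 cells, was at 256, 260.3 and 207 TPM in Rop7-I, with 29.3, 53.8 and 43.8 TPM in Rop7-II and 354, 364 and 329 TPM in Rop7-III, a rise of 2.52 (SE 0.18, adjusted p = 3.43e-05). Its neighbour Pkp4, a junction protein, was at 23.1, 25.8 and 21.3 TPM in Rop7-I against 6.8, 9.04 and 8.67 TPM in Rop7-II (log2 fold change 1.42, adjusted p = 3.35e-05). Ccr7, which guides cells to lymph nodes, was at 679.9, 681 and 692 TPM in Rop7-I against 788, 831 and 804 TPM in Rop7-II (log2 fold change -0.24, adjusted p = 5.12e-04).

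Memory-like genes gave 2 higher and 4 lower of 35, beside 3.77% and 3.90% of all genes, with a median of -0.12. Leaving out Rop7-II replicate 1 gave 5 and 3 of 34 and a median of 0.085. Members went both ways, and the sign of the median depends on that sample. The 4 lower became 1 without Rop7-I replicate 2, 2 without Rop7-I replicates 1 or 3, Rop7-II replicate 2 or Rop7-III replicates 1 or 2. In cytotoxic effector genes, where those shares amount to about 1 gene per direction, the counts were 2 higher and 2 lower of 24 (median 0.035), and 3 and 1 of 23 without Rop7-II replicate 1 (median 0.09). There the 2 lower became 1 in all single leave-outs but those of Rop7-II replicate 2 and Rop7-III replicate 3. Srgn, the proteoglycan of cytotoxic granules, was at 393, 401 and 371 TPM in Rop7-I against 314, 297 and 318 TPM in Rop7-II (log2 fold change 0.33, adjusted p = 6.05e-04).

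Some homing receptors and integrins differed as well. Of 29 chemokine and homing genes, 5 passed higher, 1 lower and 23 not (median 0.043), where the 3.77% and 3.90% of all genes amount to about 1 gene per direction, and 6 and 2 of 27 without Rop7-II replicate 1 (median 0.23). The 5 became 3 without Rop7-I replicate 2. Cxcr4, a receptor for bone marrow homing, was at 234, 265 and 263 TPM in Rop7-I, with 147, 132 and 149 TPM in Rop7-II and 233, 230.3 and 221 TPM in Rop7-III, a rise of 0.83 (SE 0.06, adjusted p = 3.67e-05). Gpr183, an oxysterol receptor whose gene overlaps Ubac2, was at 59.7, 69.02 and 55.8 TPM in Rop7-I against 29.01, 29.4 and 34.4 TPM in Rop7-II (log2 fold change 0.97, adjusted p = 1.71e-04).

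Of 24 integrins, 4 passed higher and 2 lower (median 0.0055), beside 3.77% and 3.90% of all genes, with the same counts of 23 without Rop7-II replicate 1 (median 0.077). The 4 became 2 without Rop7-I replicate 2. Itga6, a laminin-binding integrin chain, was at 208, 228 and 221 TPM in Rop7-I, with 55.8, 53.7 and 69.5 TPM in Rop7-II and 154, 168 and 167 TPM in Rop7-III, a rise of 1.87 (SE 0.086, adjusted p = 1.93e-06). Itgae, the CD103 chain that binds E-cadherin, was at 145, 114 and 164 TPM in Rop7-I, with 244, 254 and 235 TPM in Rop7-II and 104, 98.05 and 94.6 TPM in Rop7-III, and fell by 0.80 (SE 0.11, adjusted p = 0.00128). Its partner Itgb7 was at 524, 437 and 447 TPM in Rop7-I against 621, 667 and 639 TPM in Rop7-II (log2 fold change -0.46, adjusted p = 0.00185).

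Enzymes that build surface glycans gave 7 higher and 2 lower of 51 (median 0.04), beside 3.77% and 3.90% of all genes, so that the lower ones are at the share of all genes, and 9 and 1 of 50 without Rop7-II replicate 1 (median 0.075). The 7 became 4 and 3 when replicates 1 and 2 of Rop7-I were left out in turn, and the 2 lower became 0 without each sample other than Rop7-II replicate 1. Mgat5, which adds the branches that bind galectins, was at 18.9, 20.9 and 19.1 TPM in Rop7-I, with 8.96, 8.84 and 11.9 TPM in Rop7-II and 22.99, 22.5 and 24.6 TPM in Rop7-III (log2 fold change 0.93, adjusted p = 4.18e-04). The sialyltransferase gene St8sia6 was at 20.5, 27.03 and 24.7 TPM in Rop7-I against 9.57, 9.67 and 11.8 TPM in Rop7-II (log2 fold change 1.14, adjusted p = 1.95e-04).

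Among other receptors, 0 of 15 receptor tyrosine kinases passed higher by limma (1 at an unadjusted p under 0.05) and 2 lower, Kit and Ephb6, beside 3.77% and 3.90% of all genes, with a median of -0.041, and 0 and 3 of 14 without Rop7-II replicate 1. Ephb6, an Eph receptor without kinase activity, was at 7.89, 7.93 and 9.8 TPM in Rop7-I, with 32.8, 35.99 and 32.6 TPM in Rop7-II and 45.2, 43.6 and 48.1 TPM in Rop7-III, and fell by 1.87 (SE 0.082, adjusted p = 1.43e-06). In the Notch pathway 3 of 32 genes passed higher and 4 lower (median 0.012), beside the same shares, and 1 and 5 without Rop7-II replicate 1 (median 0.01). The 3 higher became 0 or 1 with any sample left out, and the 4 lower became 1 without Rop7-I replicate 1 and 2 without Rop7-I replicate 2, Rop7-II replicate 3 or Rop7-III replicates 1 or 3. Notch3, its receptor gene, was at 2.72, 2.36 and 1.93 TPM in Rop7-I, with 7.23, 8.55 and 6.73 TPM in Rop7-II and 1.11, 1.3 and 0.94 TPM in Rop7-III (log2 fold change -1.35, adjusted p = 2.86e-04).

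Single cell-cycle genes differed between the clones. Of 40 S-phase genes, 1 passed higher and 2 lower, near the 3.77% and 3.90% of all genes. The counts were the same of 39 without Rop7-II replicate 1 (medians 0.016 and -0.01), and the 1 higher became 0 without Rop7-I replicates 2 or 3. Mcm6, a subunit of the replicative helicase, was at 48.05, 49.2 and 50.9 TPM in Rop7-I, with 100.2, 106 and 78.8 TPM in Rop7-II and 50.03, 50.4 and 51.7 TPM in Rop7-III (log2 fold change -0.92, adjusted p = 2.51e-04). Of 28 genes of cohesin, condensin, SMC5/6 and securin, 2 passed higher and 1 lower with and without Rop7-II replicate 1 (medians -0.017 and -0.016), and the 2 became 1 without any Rop7-I sample or Rop7-II replicate 3. The lower gene was securin, Pttg1, at 16.5, 17.1 and 14.8 TPM in Rop7-I, with 55.9, 91.2 and 56.6 TPM in Rop7-II and 16.8, 17.1 and 13.4 TPM in Rop7-III (log2 fold change -1.97, adjusted p = 1.29e-04), which is 1 of the 116 called genes. By limma 0 of 40 G2/M genes passed (6 higher and 2 lower at an unadjusted p under 0.05), with medians of 0.025 and 0.052 with and without Rop7-II replicate 1. Mki67 was at 1.48, 1.68 and 2.72 TPM in Rop7-I, with 1.75, 1.45 and 1.07 TPM in Rop7-II and 6.6, 8.51 and 10.5 TPM in Rop7-III and did not pass (adjusted p = 0.391). Of 32 G1 cyclins, CDKs and inhibitors, 2 passed higher and 1 lower, with the same counts of 31 without Rop7-II replicate 1 (medians 0.0005 and -0.0044), and the 1 lower became 2 without Rop7-II replicate 2. Rgcc, a regulator of cell-cycle kinases, was at 124, 112 and 127 TPM in Rop7-I, with 241, 210.01 and 235 TPM in Rop7-II and 69.3, 67.7 and 63.9 TPM in Rop7-III, and fell by 0.91 (SE 0.064, adjusted p = 3.08e-05).

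Pdk1 belongs to a metabolic list that passed at about the share of all genes. Of 48 genes of glycolysis, pyruvate dehydrogenase and hypoxia, 0 passed higher by limma (9 at an unadjusted p under 0.05) and 3 lower (6.25% in either direction, beside 7.67% of all genes), with a median of -0.03. Once Rop7-II replicate 1 was left out the counts were 1 and 2 of 46 and the median 0.011. The 3 became 1 without any Rop7-I sample, without Rop7-II replicate 3 or without Rop7-III replicate 2. Ribosomal protein genes gave 11 higher and 1 lower of 81, beside 3.77% and 3.90% of all genes, with a median of 0.084 and 63 positive, and 6 and 2 of 80 without Rop7-II replicate 1 (median 0.082). The 11 became 3, 5 and 4 without Rop7-I replicate 1, 2 and 3, 5 without Rop7-II replicate 3 and 6 without Rop7-III replicate 2, and the 1 lower stayed only without Rop7-III replicates 2 or 3 and became 2 without Rop7-II replicate 1. Since TPM are shares, small shifts of such abundant genes also depend on the scaling, and the median was 0.048 after quantile normalization.

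Clock genes gave 5 higher and 1 lower of 15 (median 0.25), beside 3.77% and 3.90% of all genes, and 3 and 0 without Rop7-II replicate 1 (median 0.40). The 5 became 3 without Rop7-I replicates 2 or 3, Rop7-II replicate 2 or Rop7-III replicates 1 or 2, and the 1 lower became 0 without Rop7-I replicates 1 or 2, Rop7-II replicates 1 or 3 or Rop7-III replicate 1. Tef, a clock output factor, was at 29.4, 29.9 and 28.96 TPM in Rop7-I, with 15.6, 14.3 and 14.9 TPM in Rop7-II and 26.5, 28.8 and 26.8 TPM in Rop7-III, a rise of 0.93 (SE 0.052, adjusted p = 7.59e-06). Per2, a clock repressor, was at 1.87, 1.77 and 1.93 TPM in Rop7-I against 0.3, 0.46 and 0.2 TPM in Rop7-II (log2 fold change 1.12, adjusted p = 0.00148). The hour of sampling is not given.

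**Figure D5:**
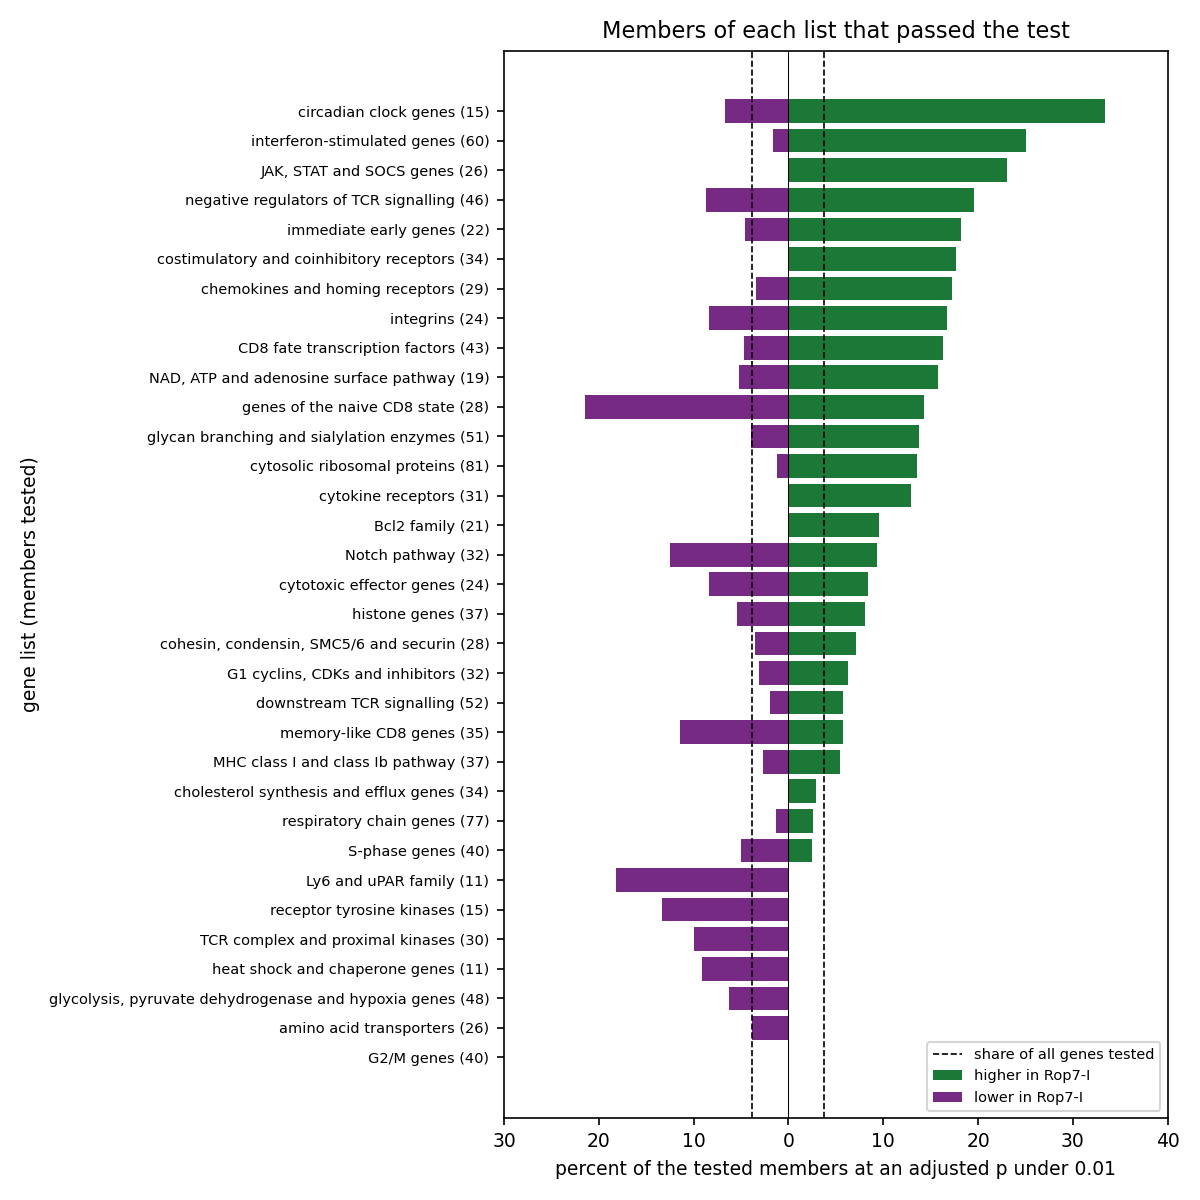
Percent of the tested members of each gene list shown that passed an adjusted p under 0.01, in Rop7-I higher or lower. Lists of cell type markers and lists with few tested members, such as the Gimap family with 8, are left out. Each row is 1 list, with a bar to the right for members higher and to the left for members lower. The dashed lines mark the share of all tested genes, 3.77% higher and 3.90% lower.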

How the data were processed

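The values are the TPM table deposited by the authors, made per the submitters' notes with RSEM 1.2.11 on mm10 from libraries that do not mark strand; the authors' own tests used DESeq2 1.8.1. Genes with a maximum over 1 TPM in the 6 samples were kept. Values were transformed as log2(TPM + 1), and limma 3.58.1 in R 4.3.3 fitted all 9 samples and let the spread follow the level, with p adjusted by Benjamini-Hochberg. The 21 alternatives were other pseudocounts (0.1 and 0.5 TPM), other filters, quantile normalization, medians shifted to a shared value, only the 6 samples, no trend, sample weights, a replicate block, each sample left out, and an adjusted p under 0.05. Named genes were set by rule: the 12 largest rises and falls, up to 4 members with the smallest adjusted p per list, 14 genes of T-cell state such as Cd5 and Il7r, called genes within 1 Mb of the leading genes, and cell type markers. Other genes are said where named to rest on values already seen. Members and the 46 lists were chosen with earlier results of these data known. Mitochondrially encoded genes matched 0 genes and were not analysed here. Positions and promoters are from RefSeq on GRCm38.p6. The code was tested on simulated data.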

Additional observations from a re-analysis of the deposited data

How the results depend on the processing

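The 116 called genes became 84 to 158 over the 21 alternatives and 92 to 158 with 1 sample left out. The 54 higher became 97 without Rop7-II replicate 1 and 40 to 97 over the left-out samples, and the 62 lower became 52 to 68. At an adjusted p under 0.01 without a fold limit, the 919 genes became 433 with only the 6 samples, 607 with no trend of the spread, 2174 at an adjusted p under 0.05 and 417 to 884 over the left-out samples. Of these, the 452 higher became 220 with only the 6 samples, 1037 at an adjusted p under 0.05 and 214 to 464 over the left-out samples. The 467 lower became 213 with only the 6 samples, 274 with no trend, 1137 at an adjusted p under 0.05 and 203 to 420 over the left-out samples. With the replicate number as a block, the counts were 103 (48 higher, 55 lower) and 617 (298 higher, 319 lower). Same-numbered deviations of Rop7-I and Rop7-II had r = -0.39, -0.175 and -0.047, and differently numbered ones had r from -0.177 to 0.326. These values cannot decide whether the numbers pair samples, because deviations from a clone's own mean depend on each other. Of the 132 named genes past the test, 87 passed under every fit alternative that tested them and 132 kept their direction there. Of the 24 leading genes, 21 passed so. Genes under 1 TPM in any of the 6 samples were not tested with the filter that asks for 1 TPM in each. The cause of these shifts was not tested.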

Other observations

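Red-cell transcripts differed widely between samples. The 9 erythroid markers in the table, led by Hbb-b1, summed to 412, 2496 and 488 TPM in Rop7-I, with 203, 28.1 and 72.4 TPM in Rop7-II and 494, 242 and 118 TPM in Rop7-III, with the highest value in Rop7-I replicate 2. Of 8 tested, limma passed 0 (4 higher at an unadjusted p under 0.05), beside 3.77% and 3.90% of all genes, with a median log2 fold change of 2.59. The 0 became 3 higher (Hbb-b1, Hbb-b2 and Hbb-bt) without Rop7-II replicate 1 (median 3.08), beside 3.95% of all genes. It became 1 higher, Hba-a2, without Rop7-II replicate 3. The beta-globin genes Hbb-b2 and Hbb-bt have identical values in all 9 samples and so do not count as separate measurements, and Hbb-bs is listed at 0 in all of them.

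Transcripts of the X-inactivation gene Xist were present in all samples, at 161, 141 and 149 TPM in Rop7-I, with 165, 162 and 167 TPM in Rop7-II and 159, 162 and 151 TPM in Rop7-III, and the Y-linked genes Ddx3y, Eif2s3y and Kdm5d are listed at 0 in all 9, while Uty, also Y-linked, reached at most 0.06 TPM. Xist and the Y-linked genes are named here because of values already seen.

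Genes of the class I pathway gave 2 higher and 1 lower of 37, near the 3.77% and 3.90% of all genes (median 0.072), and 1 and 1 without Rop7-II replicate 1 (median 0.072). Without Rop7-II replicate 2 the counts were 10 and 4, while the 2 higher became 1 without each other sample but Rop7-II replicate 3, and the 1 lower became 0 without Rop7-I replicates 2 or 3. Erap1, the peptidase that trims class I peptides, was at 65.7, 64.8 and 64.98 TPM in Rop7-I, with 51.3, 51.7 and 51.99 TPM in Rop7-II and 56.9, 56.3 and 54.2 TPM in Rop7-III (log2 fold change 0.33, adjusted p = 2.36e-04). Its gene overlaps Cast. In the Gimap family of lymphocyte GTPases, 1 of 8 passed higher and 2 lower, with and without Rop7-II replicate 1, with medians of 0.051 and 0.056. The counts were 0 and 1 without Rop7-I replicates 2 or 3, and 2 and 2 without Rop7-II replicate 3. Gimap9 was at 364, 369 and 400.4 TPM in Rop7-I, with 509, 479 and 523 TPM in Rop7-II and 329, 317 and 334 TPM in Rop7-III (log2 fold change -0.41, adjusted p = 4.30e-04).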
